A study of Mus musculus with 13 samples.

Results

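Gene-desert regions were defined here as stretches of acetylated chromatin that lie more than 100 kb from the span of any protein-coding gene. They were found by merging overlapping islands of acetylation from 13 libraries of mouse bone marrow-derived macrophages into 39569 union regions and keeping those whose nearest protein-coding gene on mm10 was farther than that limit. The rule kept 2832 regions, 7.157% of all, and used position alone among the union regions. Acetylation entered only in that an island had to be called for a region to exist.

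The libraries were chromatin immunoprecipitations of histone H3 acetylated on lysine 27 (H3K27ac) from C57BL/6 macrophages at day 7 of differentiation, with 1 library for each condition. In the cytokine experiment, which had 7 libraries and whose labels name no shRNA, cells were left for 2 h or 4 h with interleukin-4 (IL-4) at 10 ng/ml, with interferon-γ (IFNγ) at 100 ng/ml or with both, or had no cytokine (untreated). In the knockdown experiment, which had 6 libraries, cells carried an shRNA named shJunB, shCEBPb or scramble, each with 4 h of IFNγ at 100 ng/ml and each untreated. The labels give neither the age nor the sex of the mice, nor how many animals were pooled, and no library measures whether an shRNA lowered its target. All 8 macrophage marker genes had islands in all 13 libraries, with summed levels between 45396 and 67849 normalised reads. Of the markers of other cells, 5 of 7 T cell genes had islands in any library and 4 in all 13, 5 of 6 B cell genes in any and 5 in all (Pax5 in none), and 3 of 6 neutrophil genes in any and 2 in all (Mpo, Ngp and Ly6g in none). The counts were 3 and 3 of 4 endothelial genes (Tek in none), 2 and 1 of 4 erythroid genes, 2 and 1 of 6 fibroblast genes (Col1a2, Col3a1, Dcn and Pdgfra in none) and 3 and 0 of 5 mast cell or basophil genes. Their summed levels ran from 7773 to 13565 reads for T cell, 6337 to 9116 for B cell, 2468 to 7342 for neutrophil, 4670 to 15560 for endothelial, 133.9 to 1659 for erythroid, 9661 to 15811 for fibroblast and 0 to 166.8 for mast cell genes, and their part in the results was not tested.

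A gene desert is a long interval of the genome with no protein-coding gene. Such intervals often flank genes for transcription factors and signalling regulators and can hold enhancers, which act on promoters over long distances and are marked by H3K27ac while they are active. Many enhancers also sit beside the start sites of long non-coding RNAs (lncRNAs) or microRNAs. IFNγ drives macrophages towards inflammatory activation, and IL-4 drives alternative activation through the factor STAT6.

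The sequences that follow are those RefSeq gives on GRCm38.p6 for non-coding genes inside gene-desert regions, and they are shown to identify transcripts annotated in regions described further on. The microRNAs printed are from regions that rose with IFNγ, chosen after the values were seen. No sequence of a whole region was used here. Of 1228 annotated microRNA genes 11 (0.896%) lay inside a gene-desert region, as did 14 of 1738 mature sequences. Capitals mark the seed, bases 2 to 8, which pairs with target messages. The first group shares the seed GCUACAU and lies in 1 region between Dipk2b and Tex13c3 on the X chromosome. The second holds the let-7c, miR-99a and miR-125b arms of a cluster between Usp25 and Cxadr on chromosome 16, each with its own seed. The last is miR-29b from the region between Klf14 and Mkln1.
miR-221-3p, chrX:19146307-19146329, minus strand: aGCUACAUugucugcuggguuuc
miR-222-3p, chrX:19146901-19146923, minus strand: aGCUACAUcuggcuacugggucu
let-7c-5p, chr16:77599672-77599693, plus strand: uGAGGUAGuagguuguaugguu
miR-99a-5p, chr16:77598940-77598961, plus strand: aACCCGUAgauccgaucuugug
miR-125b-5p, chr16:77646279-77646300, plus strand: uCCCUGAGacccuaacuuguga
miR-29b-3p, chr6:31063025-31063047, minus strand: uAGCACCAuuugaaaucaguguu

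Start-site windows of lncRNA genes, each with 250 bases before and 50 after the start, were also read from RefSeq. Of 11588 such windows 242 (2.09%) lay inside a gene-desert region, from 211 genes in 190 regions. The 4 printed belong to the region of highest level (Morrbid, a lncRNA known to prolong the life of short-lived myeloid cells through the neighbouring gene Bcl2l11), to a region that rose with IL-4 (Gm32438), to a region that rose with IFNγ (4930459C07Rik) and to the region that fell most with IFNγ (1700052H01Rik). Capitals mark every match, on either strand, to 6 motifs: TTCNNNGAA (STAT factors), the same with 1 more base N in the middle (preferred by STAT6), TGANTCA (AP-1, the family of JunB), TTGCNNAA (C/EBP factors), GAGGAAGT (PU.1, the macrophage lineage factor) and the interferon response element (ISRE).
Morrbid, chr2:128429302-128429601, minus strand: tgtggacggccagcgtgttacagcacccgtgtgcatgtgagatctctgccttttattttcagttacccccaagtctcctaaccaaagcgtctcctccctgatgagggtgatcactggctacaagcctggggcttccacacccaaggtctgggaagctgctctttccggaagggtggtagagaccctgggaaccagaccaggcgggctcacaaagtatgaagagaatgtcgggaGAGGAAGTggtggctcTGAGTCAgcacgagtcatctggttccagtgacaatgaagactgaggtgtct
Gm32438, chr10:67693643-67693942, plus strand: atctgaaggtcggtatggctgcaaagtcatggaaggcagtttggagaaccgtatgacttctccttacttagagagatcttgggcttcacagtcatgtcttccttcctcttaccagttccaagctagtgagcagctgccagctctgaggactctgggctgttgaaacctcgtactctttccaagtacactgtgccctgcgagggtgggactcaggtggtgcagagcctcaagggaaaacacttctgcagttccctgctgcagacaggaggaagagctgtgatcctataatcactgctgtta
4930459C07Rik, chr10:96225957-96226256, plus strand: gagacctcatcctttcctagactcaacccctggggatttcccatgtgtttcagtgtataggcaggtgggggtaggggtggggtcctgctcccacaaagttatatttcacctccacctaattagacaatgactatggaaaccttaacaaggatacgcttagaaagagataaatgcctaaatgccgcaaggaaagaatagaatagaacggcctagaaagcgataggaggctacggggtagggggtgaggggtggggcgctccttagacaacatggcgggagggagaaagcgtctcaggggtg
1700052H01Rik, chr3:41364148-41364447, plus strand: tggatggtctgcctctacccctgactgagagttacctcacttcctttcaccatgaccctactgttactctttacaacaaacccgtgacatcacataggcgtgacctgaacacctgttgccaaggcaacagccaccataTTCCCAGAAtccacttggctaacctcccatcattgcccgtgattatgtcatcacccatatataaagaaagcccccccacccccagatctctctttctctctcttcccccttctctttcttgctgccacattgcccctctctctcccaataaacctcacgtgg

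The Morrbid window held 1 AP-1 match and 1 PU.1 match, and the 1700052H01Rik window 1 STAT match. The letters of the 6 motifs were not found in the Gm32438 and 4930459C07Rik windows. Over the 242 windows inside gene-desert regions, TTGCNNAA was present in 18.6%, against 12.0% of all lncRNA windows and 10.8% of all 32851 windows of protein-coding and lncRNA genes. GAGGAAGT was present in 6.20%, against 3.33% of lncRNA windows and 3.20% of all windows. TGANTCA was present in 11.6%, against 9.31% and 7.81%, and the STAT6 form in 9.92%, against 8.05% and 6.95%. TTCNNNGAA was present in 9.50%, against 9.41% and 8.30%, and the ISRE in 3.31%, against 3.61% and 3.44%. The median GC content was 46.7% in the windows inside gene-desert regions, 48.3% in lncRNA windows and 52.7% in all windows. These shares are descriptions of letters, with base composition not held equal.

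The gene-desert regions lay in 566 gaps between protein-coding genes. A single region stood in 192 of these gaps, while 79 gaps with 10 or more regions held 1434 of the 2832. The median distance to the nearest protein-coding gene was 197.8 kb and the largest 1810 kb, and 81 regions were more than 1000 kb away. The farthest, chr5:59991801-59998600 between Pcdh7 (a protocadherin) and G6pd2, was called in 6 libraries with 52.2 to 240.8 normalised reads. Chromosomes 15 (16.15%), 13 (14.29%) and 10 (13.10%) had the highest share of their union regions in deserts, and chromosomes 7 (1.398%) and 19 (1.391%) the lowest among those with any. The gaps of most regions were Myc to Gsdmc with 101, Zeb2 to Acvr2a with 86 and Nmbr to Cited2 with 72.

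The number of libraries with a call differed between gene-desert regions and the rest. Of 2832 regions 476 (16.81%) were called in all 13 libraries, against 13871 of the other 36737 (37.76%), and 704 (24.86%) were called in 1 library, against 5770 (15.71%) of the others. Regions seen in the cytokine experiment alone made up 34.36% of gene-desert regions and 19.21% of the others, and regions seen in the knockdown experiment alone 10.73% and 11.53%. The median length was 5100 bp, against 5600 bp for the others, and the longest gene-desert region spanned 153000 bp. The median density was 34.72 ChIP reads per kb of called length, against 44.08 in other regions, with control reads at 8.364 and 9.608 per kb. Among regions called in all 13 libraries the median level was 555.4 normalised reads in gene deserts and 572.1 elsewhere. On either side of the distance limit, the 215 regions at 100 to 110 kb had a median length of 5600 bp and 18.14% called in all 13, and the 262 regions at 90 to 100 kb had 4800 bp and 20.99%.

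Each gene-desert region was assigned to its nearest protein-coding gene, and the genes of 5 lists were counted among these. Of 21887 protein-coding genes 753 (3.44%) were the nearest gene of at least 1 gene-desert region. Of 20 IFNγ response genes 0 were, although Il6 and Il15 border gaps that hold such regions. Of 20 macrophage identity genes 2 were (Tlr4, the endotoxin receptor, and Runx1, a blood cell transcription factor), of 20 NF-kB and cytokine genes 1 (Tnfaip3, an NF-kB inhibitor) and of 20 IL-4 response genes 4 (Arg1, Egr2, Myc and Klf4). Of 30 developmental and nuclear factors 21 were, among them Zeb2 with 70 regions, Klf6 with 33 and Tcf4 with 24. These 30 were listed because they are known to flank deserts, so their count follows from that choice and supports nothing. The other lists were also chosen with earlier results of these data known, so their counts are descriptions only.

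Per library, gene-desert regions held 1259 and 1183 calls in shJunB cells with and without IFNγ, 1208 and 1155 in shCEBPb cells and 1084 and 1037 in scramble cells. In the cytokine experiment they held 1123 and 1436 calls with IL-4 at 2 h and 4 h, 1191 and 1550 with IFNγ, 1276 and 1354 with both cytokines and 1139 in untreated cells. The number called was higher at 4 h than at 2 h for each treatment. Islands over the whole library also rose with IL-4 (27993 to 32962) and IFNγ (29746 to 33705). With both cytokines they fell (33571 to 32272). Depth relative to the control ran from 1.016 in scramble cells with IFNγ to 2.652 with both cytokines at 4 h. The part of island number and depth in these counts was not tested. Gene-desert regions averaged 1154 ± 81.7 calls in the knockdown experiment (SD, n = 6) and 1296 ± 160 in the cytokine experiment (SD, n = 7), which a two-sided exact permutation test over the libraries did not separate (difference -141.2, p = 0.0787). The difference was -102.4 with a limit of 200 kb (exact permutation p = 0.0315) and -189.6 over islands at a false discovery rate of 1e-06 or lower (exact permutation p = 0.0128), so this call depends on both settings.

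**Figure D1:**
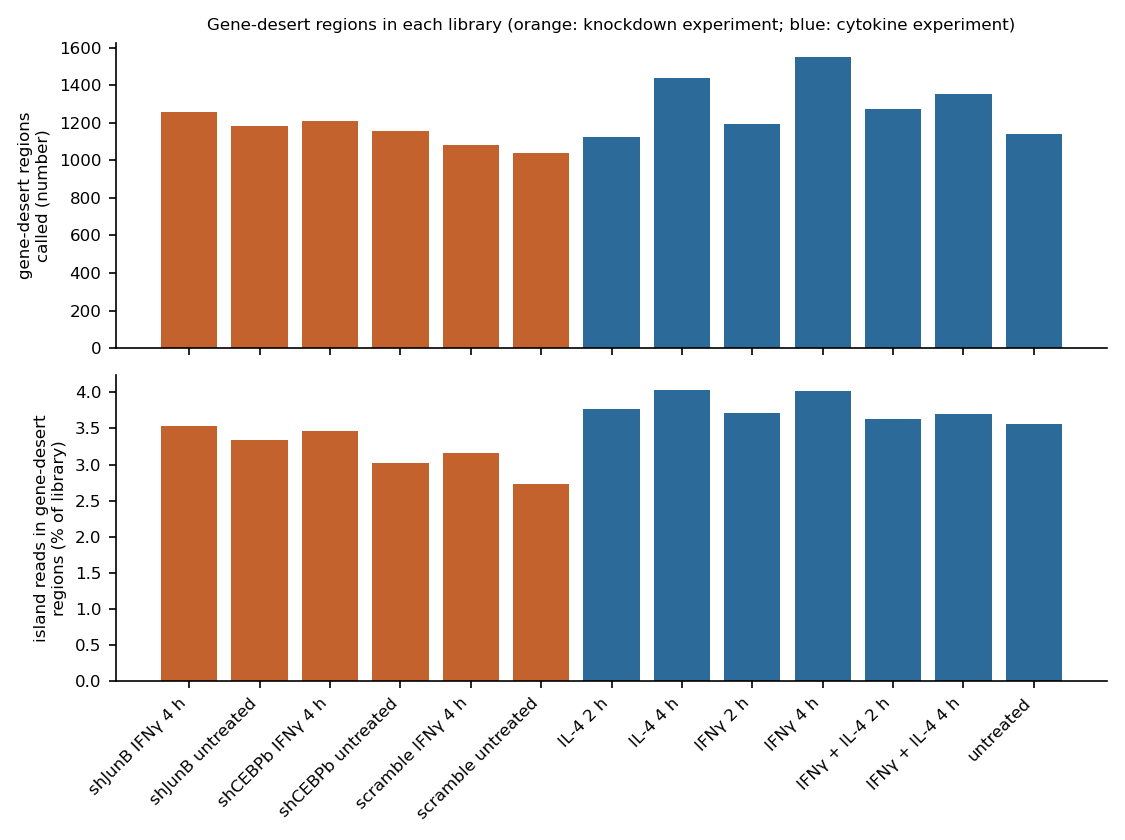
Number of gene-desert regions called (upper bars) and their share of all island reads in percent (lower bars) in each of the 13 libraries, 1 library per bar, with the knockdown experiment in orange and the cytokine experiment in blue. All 6 orange bars of the lower panel lie between 2.729% and 3.534%, below the 7 blue bars at 3.560% to 4.038%.

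The share of all island reads that fell in gene-desert regions was lower in the knockdown experiment. It was 3.534% and 3.337% in shJunB cells with and without IFNγ, 3.471% and 3.024% in shCEBPb cells, and 3.165% and 2.729% in scramble cells. In the cytokine experiment it was 3.765% and 4.038% with IL-4 at 2 h and 4 h, 3.716% and 4.014% with IFNγ, 3.631% and 3.703% with both, and 3.560% in untreated cells. The experiments did not overlap, with means of 3.210% ± 0.303 (SD, n = 6) and 3.775% ± 0.183 (SD, n = 7), a difference of -0.5655 percentage points (two-sided exact permutation test, p = 5.83e-04, the smallest that 1716 regroupings allow). With untreated and IFNγ 4 h libraries alone, 6 against 2, the difference was -0.5772 and the exact p 0.0714, where the smallest possible is 0.0357. Transduction and the treatments differ together between the experiments, as may a batch, which the labels do not give. These cannot be told apart. Within each pair, 4 h of IFNγ went with a higher share in 4 of 4, by 0.454 percentage points in the cytokine experiment, 0.436 in scramble, 0.197 in shJunB and 0.447 in shCEBPb cells. That comparison was chosen after the values were seen, and its two-sided exact sign-flip p of 0.125 is the smallest that 4 pairs allow.

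For each pair of libraries a region counted as higher or lower where the ratio of normalised reads reached 2-fold either way and the larger value was 50 or more. A library in which the region was not called was given the 5th percentile of that library's reads per island. With 1 library a condition these calls have no test, and intervals of a ratio are exact binomial (Clopper-Pearson) 95% intervals that cover counting error only. Background percentages are the share of all measured union regions past the same rule.

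With IFNγ, gene-desert regions differed in both directions. At 4 h, set against untreated cells, 496 of 1831 measured gene-desert regions (27.1%) were higher and 403 (22.0%) lower, against a background of 20.9% and 19.0%. At 2 h 376 of 1535 (24.5%) were higher and 331 (21.6%) lower, against 20.0% and 16.6%. In scramble cells after 4 h of IFNγ 358 of 1379 (26.0%) were higher and 210 (15.2%) lower, against 14.0% and 11.8%. In shJunB cells 339 of 1592 (21.3%) were higher and 274 (17.2%) lower, against 15.0% and 11.0%, and in shCEBPb cells 368 of 1481 (24.8%) were higher and 203 (13.7%) lower, against 14.0% and 11.5%. Of the regions measured in both the cytokine and the scramble pair, which share no library, 246 were higher in both, 64.1% of the 384 higher in the cytokine pair and 73.2% of the 336 higher in scramble cells. There were 149 lower in both, 47.2% of 316 and 76.4% of 195. Over all regions the same shares were 54.2% and 77.7% for higher and 47.7% and 77.1% for lower.

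Fewer regions differed in density than in total reads. Of 834 gene-desert regions called in both untreated and IFNγ 4 h cells, 203 (24.3%) had more and 204 (24.5%) fewer total reads past the rule, against 15.9% and 17.6% of all regions called in both. By density (reads per kb called) 47 (5.64%) exceeded the limit upwards and 64 (7.67%) downwards, against 4.96% and 5.25% of all regions called in both. For IL-4 at 4 h the figures per kb were 45 of 860 (5.23%) higher and 52 (6.05%) lower, against 3.83% and 2.99%. Among regions called in both libraries with a mean of at least 200 reads, 27.3% of 593 gene-desert regions were higher and 25.8% lower with IFNγ at 4 h, against 17.3% and 17.4% of all such regions. With IL-4 at 4 h the figures were 23.1% and 30.1% of 562, against 9.88% and 16.8%.

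The IFNγ effect could be tested over 4 pairs of libraries, in which each condition without IFNγ was matched to its own condition with 4 h of IFNγ. The fit covered 15598 regions called in all 8 libraries, 568 of them in gene deserts. With edgeR's quasi-likelihood test and Benjamini-Hochberg adjustment over all of them, 171 gene-desert regions (30.1%) rose and 134 (23.6%) fell at an adjusted p under 0.05, against a background of 21.4% and 22.5%. At least 2-fold changes made up 112 of the rises and 72 of the falls, and the same was not counted over all regions. The median log2 fold change was 0.14 over the gene-desert regions and 0.00 over all regions in the fit. The p-values measure the spread between these 4 pairs of single libraries, for which the labels name no separate cultures. Because every region in the fit had islands in all 8 libraries, regions that appear or vanish with IFNγ are outside it. This fit and those described later used the total reads of the islands in a region. A fitted change therefore mixes called length and density. No fit by density was run, and the part of each was not tested.

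The largest rise was at chr7:74655001-74737600, 100.2 kb from Slco3a1, a membrane transporter for organic anions. After 4 h of IFNγ it had 15970.6 normalised reads in the cytokine experiment, 9689.7 in shJunB, 9318.7 in shCEBPb and 8485.0 in scramble cells, against 707.7 in untreated, 812.5 in shJunB, 1055.5 in shCEBPb and 1170.5 in scramble cells without it. The 4 IFNγ libraries and the 4 others did not overlap, and the log2 fold change was 3.51 (SE 0.30, edgeR adjusted p = 0.00140). It had 9906.6 reads with IFNγ at 2 h, 6950.6 and 11264.3 with both cytokines at 2 h and 4 h and 484.7 with IL-4 at 2 h, and was not called with IL-4 at 4 h. Its called length was 78.2 kb with IFNγ at 4 h and 14.0 kb in untreated cells.

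Between Tnfaip3 and Olig3 a region at chr10:19137801-19212600, 122.4 kb from Tnfaip3, rose by 2.71 log2 units (SE 0.10, edgeR adjusted p = 8.50e-04). It had 6897.5 reads with 4 h of IFNγ in the cytokine experiment, 4395.3 in shJunB, 3865.1 in shCEBPb and 3718.9 in scramble cells, against 915.3, 742.3, 623.6 and 559.8 in the same cells without it. Every treated library of the cytokine experiment was above the untreated one, with 4746.8 and 3851.3 reads for IL-4 at 2 h and 4 h, 4477.5 for IFNγ at 2 h and 6084.8 and 8690.2 for both. The region lies over the start of the lncRNA Gm20139. Tnfaip3 itself, measured over its span, had 22658.0 reads with IFNγ at 4 h and 5421.2 in untreated cells.

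Several highly acetylated regions rose. All 6 regions between Eea1, an early endosome tether, and Btg1, an inhibitor of proliferation, were called in all 13 libraries, and together they had the highest summed level of any gap. The longest of them, chr10:96271001-96420800, had 24202.7 reads with 4 h of IFNγ in the cytokine experiment, 15794.3 in shJunB, 16017.0 in shCEBPb and 12218.6 in scramble cells, against 11273.3, 8099.4, 7739.6 and 6898.4 without it (log2 fold change 0.99, SE 0.08, edgeR adjusted p = 0.00130). Its neighbour chr10:96199601-96270000, which holds the 4930459C07Rik window printed above, rose by 1.54 (SE 0.15, adjusted p = 0.00177). Between Cd83, a marker of activated antigen-presenting cells, and Jarid2, a Polycomb partner, chr13:44490001-44574200 rose by 1.46 (SE 0.17, edgeR adjusted p = 0.00280). It had 16339.7, 8461.8, 8496.6 and 8601.1 reads with IFNγ in the cytokine, shJunB, shCEBPb and scramble pairs, against 4098.1, 2868.9, 3614.2 and 4184.7 without.

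Of 7 regions with a mature microRNA sequence 6 were in the IFNγ fit, of which 4 rose, 0 fell and 2 did not pass the threshold. In the same fit 21.4% of all regions rose and 22.5% fell, and 6 regions are too few to compare with these shares. The region with Mir221 and Mir222, chrX:19146001-19181600, had 6659.7 reads after 4 h of IFNγ in the cytokine experiment, 2742.0 in shJunB, 2956.5 in shCEBPb and 2612.9 in scramble cells, against 3866.2, 2156.9, 1737.4 and 1617.9 without it (log2 fold change 0.65, SE 0.11, edgeR adjusted p = 0.00671). The region with Mir99a and Mirlet7c-1 rose by 1.77 (SE 0.14, adjusted p = 0.00130), with 2567.2, 1184.1, 1720.8 and 1047.1 reads with IFNγ against 881.3, 389.7, 514.7 and 225.9 without. That with Mir125b-2 rose by 1.60 (SE 0.14, adjusted p = 0.00141) and that with Mir29b-1, which reaches from the microRNA into the lncRNA gene Lncpint, by 0.59 (SE 0.08, adjusted p = 0.00406). The 2 that did not pass hold Mir466j (log2 fold change -0.55, SE 0.25, edgeR adjusted p = 0.131) and the microRNA gene Gm51282 (0.63, SE 0.20, edgeR adjusted p = 0.0513). The Mir466j region had 646.7 reads with IFNγ in the cytokine pair, 937.4 in shJunB, 851.0 in shCEBPb and 760.8 in scramble cells, against 1845.1, 1048.6, 1067.7 and 887.3 without it, lower in all 4 pairs. H3K27ac over a microRNA gene is no measure of the mature microRNA.

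The other 4 largest rises were regions of lower level. They lay 193.3 kb from Grpr, 106.9 kb from Mrpl39, 194.2 kb from Zpld1 and 113.5 kb from Bcl6, with log2 fold changes of 3.07, 2.85, 2.82 and 2.82 (SE 0.28 to 0.36, edgeR adjusted p = 0.00155 to 0.00337). The gap of the third ends at Nfkbiz, an inducible regulator of NF-kB. The gap of the fourth, between Bcl6, a transcriptional repressor, and Lpp, also held chr16:24117201-24217800, which rose by 0.91 (SE 0.15, adjusted p = 0.00667). Outside the fit, chr12:32674201-32712600, 107.7 kb from Nampt, an enzyme of NAD salvage, had 1741.0 reads in shJunB cells with IFNγ, 1723.8 in shCEBPb and 1448.0 in scramble cells, against 47.4, 92.3 and 61.6 without it. In the cytokine experiment it had 506.0 and 1228.9 reads with IFNγ at 2 h and 4 h and was not called in untreated or IL-4 cells.

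**Figure D2:**
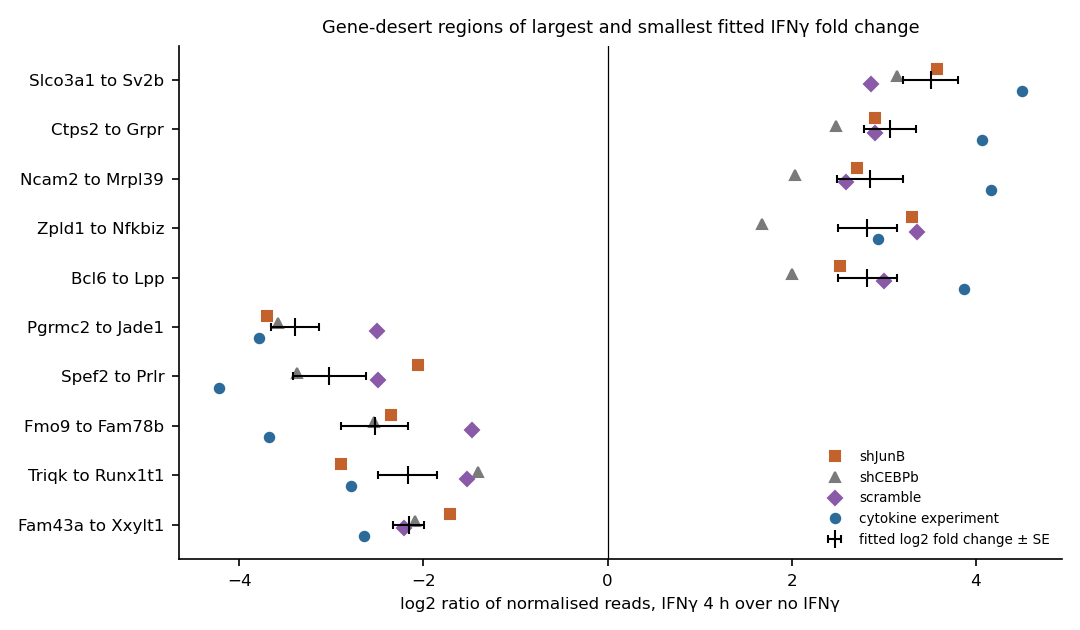
Log2 ratio of normalised reads, 4 h of IFNγ over no IFNγ, for the 5 gene-desert regions of largest and the 5 of smallest fitted fold change, named by their flanking genes. Symbols give each of the 4 pairs of libraries and black bars the edgeR log2 fold change ± SE, derived from the F statistic of the test. All 4 pairs fall on the same side of 0 for each region, and the fitted values reach 3.51 and -3.39.

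The strongest fall with IFNγ was at chr3:41355801-41391600, 164.1 kb from Jade1, a chromatin-binding adaptor, which holds the 1700052H01Rik window printed above. It had 108.0 reads with 4 h of IFNγ in the cytokine experiment, 129.4 in shJunB, 146.1 in shCEBPb and 270.0 in scramble cells, against 1497.9, 1686.6, 1741.8 and 1529.3 without it. The libraries with and without IFNγ did not overlap, and the log2 fold change was -3.39 (SE 0.26, edgeR adjusted p = 0.00118). IL-4 libraries were also low here, at 316.3 and 338.2 reads at 2 h and 4 h. Regions 104.5 kb from Spef2, 149.4 kb from Fam78b, 143.5 kb from Triqk and 161.1 kb from Xxylt1 followed, at -3.02, -2.53, -2.17 and -2.16 (SE 0.17 to 0.40, edgeR adjusted p = 0.00130 to 0.00483).

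Other regions fell with IFNγ as well, and the first given here was lower with every cytokine treatment. Between Map3k1, a kinase of stress signalling, and Ankrd55, chr13:111923601-112021200 had 2670.7 reads in shJunB cells with IFNγ, 3257.7 in shCEBPb and 2750.3 in scramble cells, against 6968.4, 7231.9 and 7142.7 without it. In the cytokine experiment it had 2230.6 and 3304.6 reads with IL-4 at 2 h and 4 h, 3017.5 and 3909.4 with IFNγ and 3326.8 and 4123.0 with both, against 10538.9 in untreated cells. The IFNγ fit gave -1.33 (SE 0.09, edgeR adjusted p = 0.00108). In the same fit the longest gene-desert region, chr13:97459401-97612400 between Enc1 and Arhgef28, fell by 0.58 on the log2 scale (SE 0.16, edgeR adjusted p = 0.0344). At chr7:135908001-135926400, 191.6 kb from Mki67, the gene of the proliferation marker Ki-67, reads were 93.8 with IFNγ at 4 h and 2178.9 in untreated cells. They were 76.9 with IFNγ and 1141.3 without it in scramble cells, and 119.3 with and 1005.9 without it in shCEBPb cells. In shJunB cells the region was not called with IFNγ and had 1190.8 reads without it.

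The region of highest mean level passed no test in this fit. It was chr2:128329801-128478200 between Bcl2l11, which encodes the pro-apoptotic protein Bim, and Spdye4c, and it holds Morrbid. It had 13168.5 reads after 4 h of IFNγ in the cytokine experiment, 14026.9 in shJunB, 13565.6 in shCEBPb and 11402.2 in scramble cells, against 17794.3, 14993.8, 13638.2 and 11411.7 without it (log2 fold change -0.13, SE 0.10, edgeR adjusted p = 0.317). The sets overlap, and the 13 libraries ran from 11402.2 to 22208.7, the highest with IL-4 at 2 h.

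IL-4 also went with changes in both directions. At 4 h, set against untreated cells, 362 of 1688 measured gene-desert regions (21.4%) were higher and 440 (26.1%) lower, against a background of 12.4% and 20.8%. At 2 h 336 of 1477 (22.7%) were higher and 382 (25.9%) lower, against 14.2% and 18.5%. With both cytokines 379 of 1613 (23.5%) were higher and 455 (28.2%) lower at 2 h, against 19.2% and 20.0%, and 385 of 1658 (23.2%) were higher and 473 (28.5%) lower at 4 h, against 17.3% and 19.6%. These 4 comparisons and those of IFNγ in the cytokine experiment use the same untreated library, so they are given side by side only.

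The desert between Myc, the growth-promoting transcription factor, and Gsdmc, a gasdermin, held the gene-desert regions of largest IL-4 ratio. Its 101 regions summed to 42977.6 normalised reads with IL-4 at 2 h and 57309.3 at 4 h, 17399.4 and 16025.3 with IFNγ, and 26511.2 and 36052.8 with both, against 6239.4 in untreated cells, where regions that were not called add nothing. These sums move with the number of calls, which was 33 and 98 with IL-4 at 2 h and 4 h, 16 and 17 with IFNγ and 24 and 50 with both, against 9 in untreated cells. The called length was 777.0 kb with IL-4 and 203.8 kb with IFNγ at 4 h, against 98.0 kb in untreated cells, and the mean density 73.8 and 78.6 reads per called kb, against 63.7. Of the 9 regions called both with IL-4 at 4 h and in untreated cells, 8 were higher with IL-4 and 0 lower. Of all union regions called in both libraries 9.25% were higher and 18.2% lower. This gap was named after its values were seen. In the knockdown experiment the sum was 11671.9 with IFNγ and 3594.2 without in shJunB cells, 8222.2 and 3278.0 in shCEBPb cells and 8269.0 and 1559.5 in scramble cells.

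**Figure D3:**
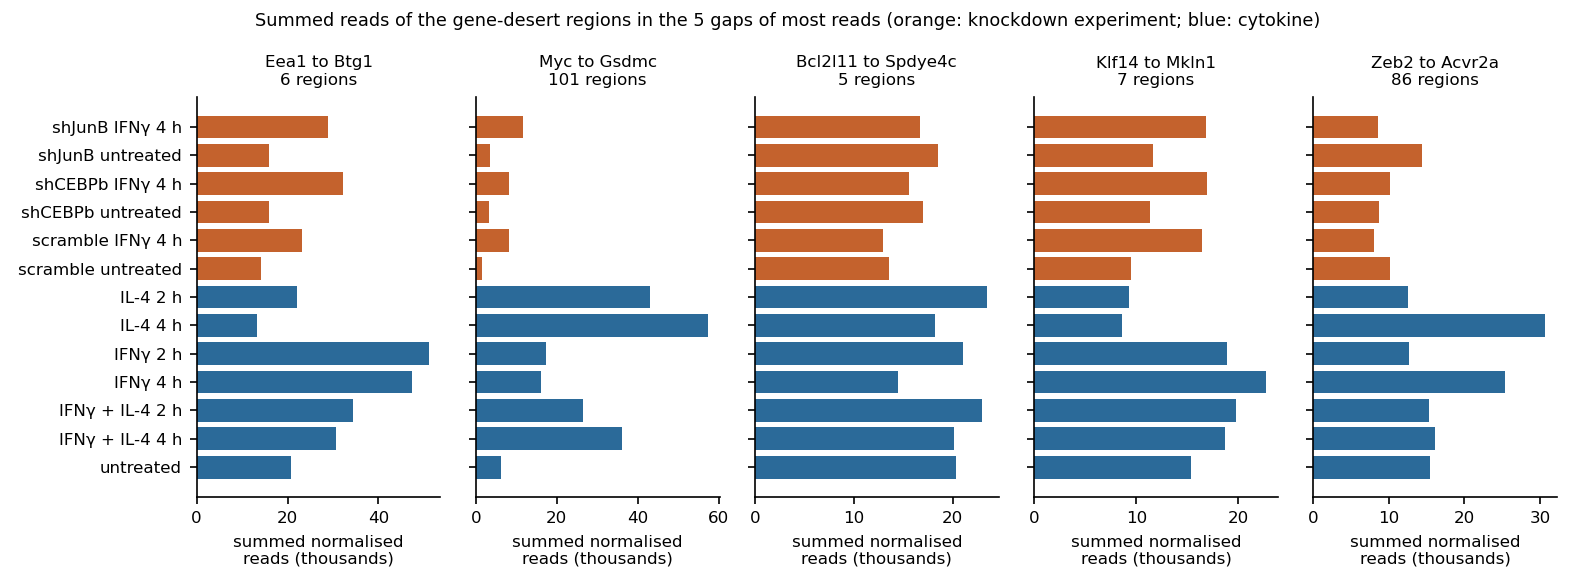
Summed normalised reads of all gene-desert regions in each of the 5 gaps of highest level, for the 13 libraries (orange: knockdown experiment, blue: cytokine experiment). Regions not called in a library add nothing to its sum, which moves with the number called. The Myc to Gsdmc gap reaches 57309.3 reads with IL-4 at 4 h and 6239.4 in untreated cells.

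The largest of all ratios computed for named regions was in this desert. At chr15:62884801-62922000, 894.4 kb from Myc and 854.0 kb from Gsdmc, reads were 2271.4 and 3533.5 with IL-4 at 2 h and 4 h and 972.4 and 1987.0 with both cytokines, against 77.9 and 69.0 with IFNγ and 70.4 in untreated cells. The 4 libraries with IL-4 were above the other 3, and the ratio at 4 h was 50.2-fold (counting interval 38.7 to 66.2). In the knockdown experiment the region was called in untreated shCEBPb cells alone, with 83.6 reads. Its called length was 37.0 kb with IL-4 at 4 h and 1.6 kb in untreated cells, and the ratio of reads per called kb was 2.17. Another region, chr15:63494201-63561000, had 8449.6 reads with IL-4 at 4 h and 191.8 in untreated cells (44.1-fold, interval 37.6 to 51.9), over a called length of 66.8 kb and 5.0 kb, or 3.30-fold per called kb. The region chr15:62228801-62316200, over the lncRNA Pvt1, had 5132.0 with IL-4 at 4 h and 1075.5 in untreated cells. Myc, measured over its span, had 5124.4 and 3919.0 reads with IL-4 at 2 h and 4 h and 1647.2 in untreated cells.

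IL-4 was also tested in a fit over 3 backgrounds: cells without IFNγ, where IL-4 at 2 h and 4 h was set against the untreated library, and cells with IFNγ for 2 h or 4 h. Of 586 gene-desert regions among the 15355 tested, 4 rose (0.683%) and 0 fell by edgeR's quasi-likelihood test at an adjusted p under 0.05, against a background of 0.156% and 0.0261%. At an unadjusted p under 0.05, 58 (9.90%) were higher and 129 (22.0%) lower, against 8.09% and 11.2% of all regions tested. DESeq2 called 49 (8.36%) higher and 90 (15.4%) lower at its adjusted threshold, against 4.42% and 5.57%. Leaving out any 1 of the 3 backgrounds brought the 4 rises to 0. The fitted effect is the same for 2 h and 4 h.

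The 4 regions that rose with IL-4 lay in different deserts. The first is the Myc region described above (log2 fold change 4.65, SE 0.45, edgeR adjusted p = 0.0497). The second, chr10:67678801-67770600, holds the Gm32438 window printed above and lies 115.5 kb from Zfp365, its nearest protein-coding gene. Egr2, a transcription factor of alternative activation, lies 136.6 kb away, with Ado between them. This second region had 17361.9 and 14766.8 reads with IL-4 at 2 h and 4 h and 12702.6 and 13154.3 with both cytokines, against 3917.6 and 3228.9 with IFNγ and 3909.9 in untreated cells (log2 fold change 1.91, SE 0.15, edgeR adjusted p = 0.0333). The 4 libraries with IL-4 were above the other 3, and the 6 knockdown libraries, none with IL-4, had 2102.8 to 4307.1. The third, chr18:68871201-68891600, between Mc2r and Tcf4, a basic helix-loop-helix factor, had 1496.9 and 1928.4 reads with IL-4 and 714.4 and 820.6 with both, against 141.6 and 105.0 with IFNγ and 223.4 in untreated cells (2.74, SE 0.22, edgeR adjusted p = 0.0333). The fourth, chr11:18679801-18685400, 195.0 kb from Meis1, a homeobox gene, had 421.4 and 351.2 reads with IL-4 and 273.0 and 226.0 with both, against 76.8 and 62.3 with IFNγ and 77.7 untreated (2.00, SE 0.19, edgeR adjusted p = 0.0478).

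**Figure D4:**
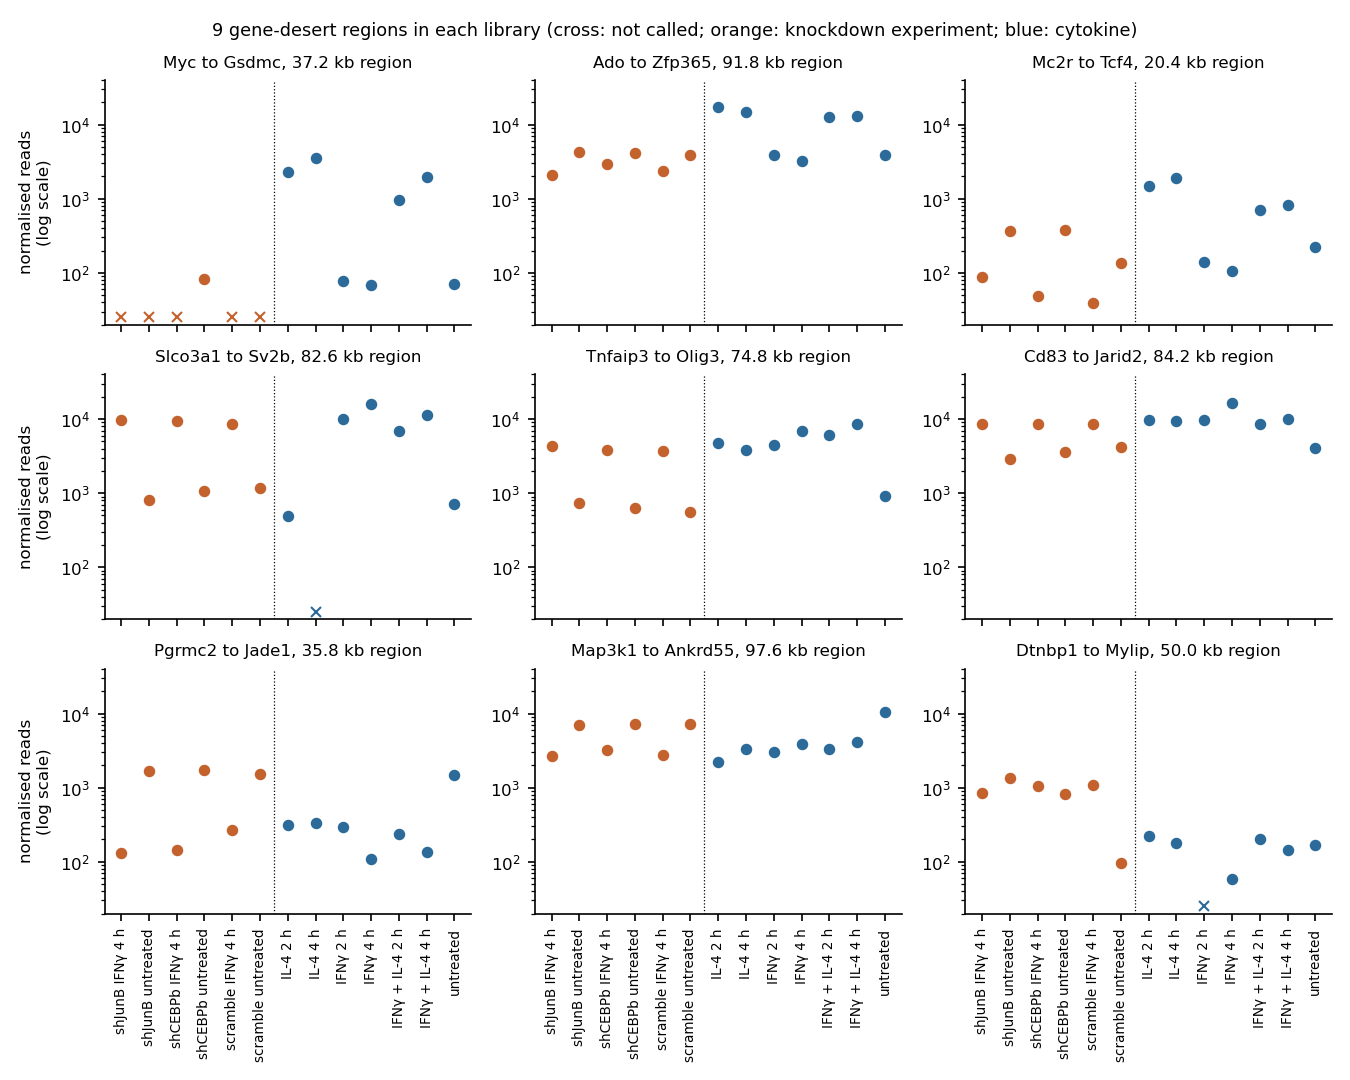
Normalised reads on a log scale in each of the 13 libraries for 9 gene-desert regions named by their flanking genes (orange: knockdown experiment, blue: cytokine experiment, cross: not called in that library, drawn at the foot of the axis). In the upper row the 4 libraries with IL-4 lie above the untreated library, and in the Slco3a1 to Sv2b panel all libraries with IFNγ lie at or above 6950.6 reads.

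Near Arg1, the arginase gene of alternative activation, 1 gene-desert region lay 100.9 kb away, at chr10:25028401-25047400. It had 612.2 and 378.1 reads with IL-4 at 2 h and 4 h, was called with both cytokines at 4 h at a lower level, and was not called in the other 10 libraries, untreated cells included. Other regions high with IL-4 were chr1:71948601-72005000 between Fn1, the fibronectin gene, and Mreg, with 6887.2 reads at 4 h and 462.5 in untreated cells (14.9-fold, interval 13.4 to 16.6), and chr2:45334401-45363800, 217.0 kb from Zeb2, a zinc-finger transcription factor, with 1067.5 at 4 h and 48.6 in untreated cells (22.0-fold, interval 16.1 to 30.9). The Fn1 region had a called length of 55.8 kb with IL-4 at 4 h and 9.8 kb in untreated cells, or 2.62-fold per called kb. The Zeb2 region had 29.4 kb with IL-4 at 4 h and 1.6 kb in untreated cells, or 1.2-fold per called kb. The region of most reads that was called with IL-4 at 4 h and not in untreated cells was chr18:68910401-68960400 in the desert of Tcf4, with 3995.0.

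Other regions were lower with IL-4. At chr2:117910201-117946200, 165.7 kb from Thbs1, which encodes the matrix protein thrombospondin 1, reads were 171.4 and 69.5 with IL-4 at 2 h and 4 h, 1720.1 and 1779.5 with IFNγ and 1665.9 and 881.5 with both, against 2876.9 in untreated cells. That is 41.4-fold lower at 4 h, over a called length of 1.4 kb with IL-4 and 33.4 kb in untreated cells, with a ratio of 0.576 per called kb. The fit over 3 backgrounds gave -2.35 (edgeR adjusted p = 0.299). The 17 regions between Pard3, a polarity protein, and Nrp1, a receptor for semaphorins, summed to 3372.4 and 2678.1 reads with IL-4 at 2 h and 4 h, 10635.5 and 23433.7 with IFNγ and 5786.9 and 13672.6 with both, against 22109.7 in untreated cells. The number called was 5 with IL-4 at 2 h and 4 at 4 h, over 56.0 kb and 48.0 kb, against 13 over 225.2 kb in untreated cells. The mean density was 60.2 and 55.8 reads per called kb with IL-4, against 98.2 in untreated cells. Of the 4 regions called both with IL-4 at 4 h and in untreated cells, 4 were lower with IL-4, against 18.2% of all union regions called in both. This gap too was named after its values were seen, so that count is a description only.

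The Klf4 desert held a region that was higher with each cytokine. At chr4:56050001-56093400, 517.5 kb from Klf4, a factor of alternative activation, reads were 1602.0 and 973.0 with IL-4 at 2 h and 4 h, 2971.4 and 528.9 with IFNγ and 3555.0 and 2245.1 with both, against 91.0 in untreated cells. The IFNγ ratio was 32.6-fold at 2 h (interval 26.0 to 41.6), over a called length of 32.2 kb with IFNγ and 1.8 kb in untreated cells, or 1.82-fold per called kb. After 4 h of IFNγ it had 626.0 reads in shJunB, 333.0 in shCEBPb and 129.3 in scramble cells, against 271.1, 290.0 and 474.5 without it. Of the 4 pairs the scramble pair alone was lower with IFNγ.

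The shRNAs were compared with scramble in cells without IFNγ. With shJunB 233 of 1310 measured gene-desert regions (17.8%) were higher and 56 (4.27%) lower, against a background of 5.24% and 3.89%. With shCEBPb 107 of 1235 (8.66%) were higher and 42 (3.40%) lower, against 3.87% and 1.88%. Both comparisons rest on the same scramble library, which had the fewest gene-desert regions (1037) and the lowest share of reads in them (2.729%) of the 13. Among regions called in both libraries with a mean of at least 200 reads, 72 of 517 gene-desert regions (13.9%) were higher with shJunB and 17 (3.29%) lower, against 2.51% and 1.64%. By density, 4 of 900 gene-desert regions called in both (0.444%) exceeded the limit upwards and 3 (0.333%) downwards, against 0.191% and 0.933%.

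The fits over both states, with and without IFNγ, gave no call. For shJunB and for shCEBPb, 0 of 636 gene-desert regions passed edgeR's adjusted threshold in either direction, and 0% of the 17047 regions tested did so higher and 0% lower. At an unadjusted p under 0.05, 159 (25%) were higher and 39 (6.13%) lower with shJunB, against 8.96% and 6.68% of all regions tested. With shCEBPb 101 (15.9%) were higher and 13 (2.04%) lower, against 6.32% and 1.57%. DESeq2 called 60 (9.43%) higher and 9 (1.42%) lower with shJunB, against 2.39% and 1.23%, and 14 (2.2%) higher and 0 lower with shCEBPb, against 0.446% and 0.00587%. The median log2 fold change of the gene-desert regions was 0.24 with shJunB and 0.20 with shCEBPb, against 0.00 and 0.01 over all regions.

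The largest ratio between either shRNA and scramble was at chr13:45187401-45237400, 152.3 kb from Mylip, a ubiquitin ligase of the LDL receptor. It had 1335.8 reads with shJunB and 808.2 with shCEBPb, against 97.3 with scramble, or 13.7-fold (interval 11.1 to 17.2) and 8.31-fold (6.69 to 10.4). Its called length was 48.8 kb with shJunB and 31.6 kb with shCEBPb, against 4.2 kb with scramble, and the ratios per called kb were 1.18 and 1.1. With IFNγ the 3 shRNA libraries had 840.9, 1044.8 and 1068.4 reads in that order, so the untreated scramble library alone was low in this experiment. The 6 cytokine libraries in which it was called had 58.5 to 222.4. The lowest ratio with shCEBPb was 242.1 kb from Klf4, at chr4:55774601-55787800, with 52.3 reads against 237.8 in scramble cells. The lowest with shJunB was 120.7 kb from Max, the dimer partner of Myc, at chr12:77083001-77103200, with 83.4 reads against 327.5.

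The share of regions past the 2-fold rule was also counted by distance class. With shJunB against scramble it was 3.856% higher among regions that overlap a gene, 4.338% up to 10 kb away, 7.406% at 10 to 50 kb, 11.22% at 50 to 100 kb, 15.92% at 100 to 200 kb, 20.58% at 200 to 500 kb and 17.59% beyond 500 kb. With IL-4 at 4 h it was 10.64%, 13.81%, 15.82%, 16.82%, 19.71%, 21.60% and 27.12% over the same classes. With IFNγ at 4 h it was 18.84% over genes, between 22.57% and 28.20% in the 5 classes from up to 10 kb to 500 kb, and 25.23% beyond 500 kb. The share lower with shJunB was 3.627%, 4.807%, 4.764%, 4.550%, 5.168%, 3.292% and 2.778% over the 7 classes. The share lower with IL-4 at 4 h was 18.56%, 23.27%, 28.11%, 28.37%, 29.75%, 23.84% and 19.07%, and that with IFNγ at 4 h 18.14%, 20.99%, 20.47%, 22.17%, 24.24%, 21.19% and 14.86%. For these 3 comparisons the lower share was thus highest at 100 to 200 kb and smaller beyond it. The share called in all 13 libraries was 44.28% over genes and 8.311% beyond 500 kb, so the classes also differ in how often a missing island was filled in, and the part of that in the trend was not tested.

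**Figure D5:**
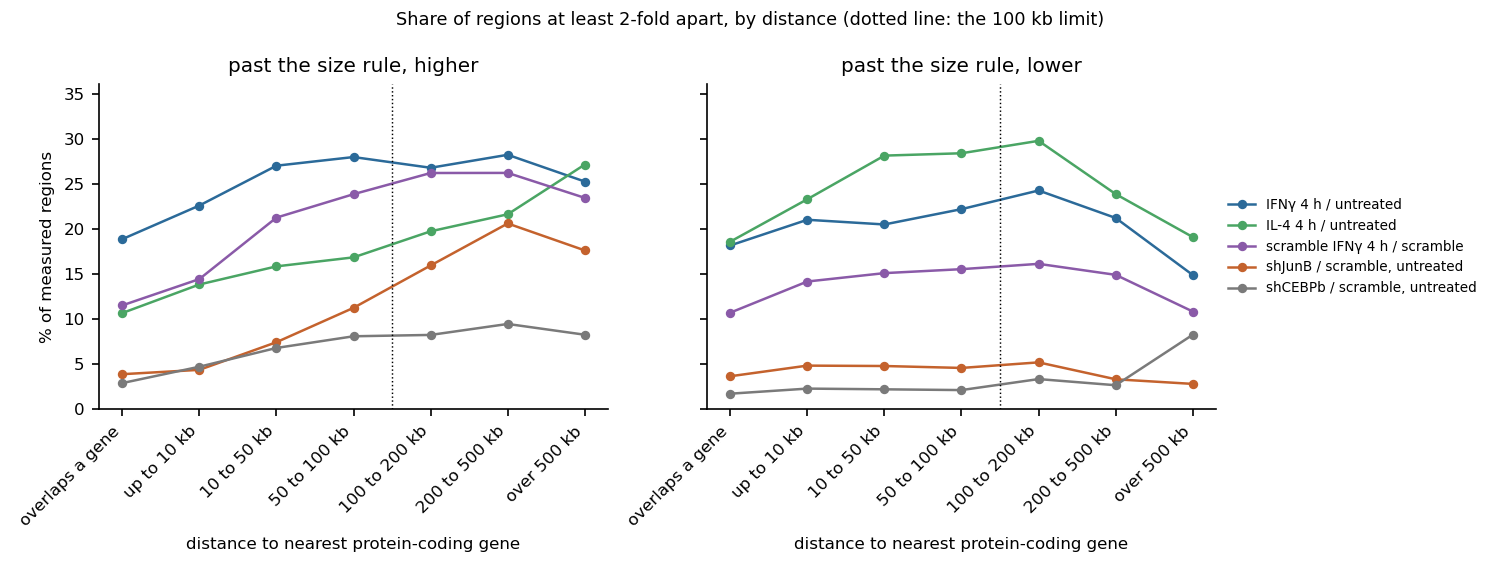
Percent of measured regions past the 2-fold rule, higher (left) and lower (right), by distance from the nearest protein-coding gene, for 5 comparisons of 2 libraries. The dotted line marks the 100 kb limit, with gene-desert regions to its right. The line for shJunB over scramble runs from 3.856% over genes to 20.58% at 200 to 500 kb.

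The nearest protein-coding gene was read in the same libraries. Of the 159 gene-desert regions that were higher with IFNγ at 4 h and whose nearest gene had islands in both libraries, 110 had a gene log2 ratio above 0, with a median of 0.51, against a median of 0.07 over all 641 such pairs. Of the 160 lower regions, 96 had a gene below 0, with a median of -0.19. For IFNγ at 2 h 99 of 131 higher regions had a gene above 0 and 73 of 151 lower regions one below 0. The medians there were 0.57 and 0.03, against 0.29 over all 596. For IL-4 at 4 h 65 of 121 higher regions had a gene above 0 and 125 of 182 lower regions one below 0, with medians of 0.02 and -0.28 against -0.16 over all 668. Across regions Pearson's r at 4 h was 0.25 for IFNγ and 0.22 for IL-4, as a description, since region and gene share the 2 libraries and regions of a gap share a gene.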

How the data were processed

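Each library was a single H3K27ac immunoprecipitation. Per the submitters' processing notes, reads were aligned to mm10 (GRCm38) with Bowtie2 2.2.6 and islands called with SICER 1.1; per the file names' settings the window was 200 bp and the FDR limit 0.01. The authors deposited, for each island, raw ChIP read counts and control read counts, a p-value and FDR against the control, and the ChIP over control ratio (fold), which was used to recover relative depth. At all 29680 island positions found with equal coordinates in more than 1 file the control counts were equal. What the control was is not given in the sources used here.

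Islands overlapping by at least 1 bp were merged over all 13 libraries, with positions 1-based on mm10. Distances were taken to protein-coding gene spans of RefSeq on GRCm38.p6. Normalised reads are counts scaled by size factors (median of ratios, from regions with a call in all 13 libraries). Island reads per library ran from 10120199 to 29532678. A library with no island in a region is written as not called, which is not a level of 0, and for ratios received its 5th percentile of reads. Comparisons across pairs used edgeR 4.0.16 (quasi-likelihood test, Benjamini-Hochberg adjustment over all regions called in every library of the fit) and, as an alternative, DESeq2 1.42.0. Each SE is the size of the log2 fold change divided by the square root of edgeR's F statistic. The fits were also run on simulated counts. These had no differences between backgrounds, 1 dispersion for all regions and no missing calls. They therefore do not vouch for the fits on the real libraries. Other computations used Python 3.11.15 with pandas 2.3.3 and scipy 1.17.1.

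Regions named are the highest, longest and farthest, those of largest and smallest ratio or fitted change in each comparison, those nearest to the listed genes and those with microRNA genes. The members and lists were chosen with earlier results of these data known. The 6 cytokine comparisons share 1 untreated library, and both shRNA comparisons share 1 scramble library. Alternatives changed the distance, merging, FDR, scaling, control subtraction, density, tool and library set.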

Additional observations from a re-analysis of the deposited data

Results flagged for a closer look

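Across the regions measured in both experiments, 15 gene-desert regions passed the 2-fold rule with 4 h of IFNγ in opposite directions in the cytokine and the scramble pair, and 9 of them were called in all 4 libraries. The 15 made up 1.24% of the 1212 gene-desert regions measured in both pairs, against 80 of all 23303 regions (0.343%). These 9 drew attention because the pairs moved opposite ways. Each pair is 1 library against 1, and the difference between pairs was not tested. Between Klf4, the factor named above, and Actl7b, chr4:56050001 had a log2 ratio of 2.54 in the cytokine pair and -1.88 in scramble cells. With IFNγ it had 626.0 reads in shJunB and 333.0 in shCEBPb cells, against 271.1 and 290.0 without. Between Aldh8a1 and Sgk1, a serum-induced kinase, the regions starting at chr10:21540401 and chr10:21625801 had -1.71 and -1.08 in the cytokine pair, and 1.51 and 1.00 in scramble cells. The first had 336.6 reads with IFNγ in shJunB and 221.7 in shCEBPb cells, against 245.6 and 97.5 without, and the second 598.6 and 464.2 with IFNγ, against 486.4 and 364.9 without. Between Sox9, a developmental factor, and Slc39a11, chr11:113025601 had -1.24 in the cytokine pair and 1.11 in scramble cells. Reads there were 419.9 in shJunB and 271.4 in shCEBPb cells with IFNγ, against 376.4 and 382.3 without. The region between Dtnbp1 and Mylip had -1.52 in the cytokine pair and 3.46 in scramble cells, where the untreated library was the low one. In shJunB and shCEBPb cells it had 840.9 and 1044.8 reads with IFNγ, against 1335.8 and 808.2 without. In the Myc desert, chr15:63645801 had -1.17 in the cytokine pair and 1.35 in scramble cells. Its reads were 408.9 in shJunB and 136.2 in shCEBPb cells with IFNγ, against 614.4 and 581.8 without, so both pairs moved as the cytokine pair did. Between St3gal1 and Zfat, chr15:67697001 had -1.57 in the cytokine pair and 1.35 in scramble cells. In shJunB cells it had 138.1 reads with and 190.6 without IFNγ, and in shCEBPb cells 300.2 with and 42.7 without. Between Sall3 and Galr1, chr18:81580401 had -1.45 in the cytokine pair and 2.65 in scramble cells. It had 430.9 reads in shJunB and 394.7 in shCEBPb cells with IFNγ and was not called in either without it. Between Zfp516 and Tshz1, chr18:83735601 had -1.34 in the cytokine pair and 1.47 in scramble cells. Reads with IFNγ were 320.1 in shJunB and 275.4 in shCEBPb cells, against 108.1 and 142.0 without.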

How the results depend on the processing

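The number of gene-desert regions was 4734 at a distance of 50 kb, 1400 at 200 kb and 344 when the distance was taken from any annotated gene, non-coding genes and pseudogenes included. Over regions called in both libraries alone, the numbers higher and lower were 174 and 188 for IFNγ at 2 h, 203 and 204 for IFNγ at 4 h, 160 and 205 for IL-4 at 2 h, 158 and 240 for IL-4 at 4 h, 163 and 233 for both at 2 h, 144 and 266 for both at 4 h, 160 and 101 for IFNγ in scramble cells, 169 and 133 for IFNγ in shJunB cells, 181 and 103 for IFNγ in shCEBPb cells, 120 and 31 for shJunB over scramble and 61 and 18 for shCEBPb over scramble. Per kb of called length the numbers higher and lower were 45 and 63 for IFNγ at 2 h, 47 and 64 for IFNγ at 4 h, 24 and 78 for IL-4 at 2 h, 45 and 52 for IL-4 at 4 h, 61 and 62 for both at 2 h, 21 and 89 for both at 4 h, 14 and 11 for IFNγ in scramble cells, 33 and 6 for IFNγ in shJunB cells, 24 and 12 for IFNγ in shCEBPb cells, 4 and 3 for shJunB over scramble and 3 and 1 for shCEBPb over scramble. Both settings measure fewer regions. With control reads subtracted 94 regions were lower with shJunB. Neither scaling by recovered depth nor any other control subtraction moved a count by over 1.5 times. DESeq2 called 49 higher and 90 lower with IL-4, 60 and 9 with shJunB, and 14 higher with shCEBPb; the cause was not tested. Shares over all regions per kb are given above for IFNγ at 4 h, IL-4 at 4 h and shJunB. They were not counted per kb for the other comparisons, with control reads subtracted or with a background left out. Those counts therefore cannot be set against all regions. Without any 1 background the IL-4 rises were 0 to 0, and with IFNγ the rises were 128 to 199 and the falls 96 to 150. For shRNA fits this was not run, since no residual degrees of freedom remained. The difference in calls between experiments was -102.4 (exact permutation p = 0.0315) at 200 kb and -189.6 (exact p = 0.0128) at an FDR of 1e-06, and that in read share was -0.5772 (exact p = 0.0714) with untreated and IFNγ 4 h libraries alone. The IFNγ fit pairs libraries by background; the labels give no replicate numbers for any other block. Single libraries, calls missing below the island threshold and a shared control limit every value.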
